A study of Mus musculus with 6 samples.

Results

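C/D box small nucleolar RNAs (snoRNAs) were examined in small RNA libraries from extracellular vesicles (EVs). They were taken as all rows of the count table that the authors typed as C/D box, which gave 325 of 61949 rows. Rows with equal counts in all 6 libraries were treated as 1 unit, which left 222 units in 98 name families. EVs released by cortical astrocytes in primary culture were compared with EVs released by subventricular zone neural stem cells (NSCs) labelled neonatal, and both cultures came from CD1 mice. Each EV type had 3 libraries, no allele or treatment was labelled, and no further group was used. Per the study's methods the astrocytes came from the dorsal cortices of postnatal pups and their EVs were pelleted by ultracentrifugation. The sources used here tie no library to an animal or a culture, and the p-values below therefore rest on the spread among libraries, which may be technical. An EV pool can hold fewer EVs of a kind or less RNA per EV, and the 2 cannot be told apart in these data.

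C/D box snoRNAs guide the protein fibrillarin to add methyl groups to the ribose of ribosomal and spliceosomal RNA. The conserved C box near the 5′ end and D box near the 3′ end bind the core proteins, and the stretch just before a D box pairs with the target. Most are cut from introns of host genes, many of which code for ribosomal proteins or for long noncoding RNAs such as Gas5. A few, such as U14 (SNORD14) and U22 (SNORD22), act in cleavage of the ribosomal RNA precursor. The brain is known for imprinted snoRNA clusters: SNORD115 and SNORD116 lie in the Prader-Willi locus and are made from the paternal Snhg14 transcript, and SNORD113 lies in the Dlk1-Dio3 domain, expressed from the maternal chromosome.

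Of the 325 rows, 320 matched a GENCODE M21 transcript of the same assembly (GRCm38, mm10) exactly. Row lengths ran from 34 to 238 bases with a median of 79. The letters TGATGA within the first 25 bases and CTGA within the last 25 bases, searched on the transcript strand, were both found in 248 rows (77.5%). The same search found both in 2 of 466 H/ACA box snoRNA rows (0.429%) and in 9.04% of 3507 GENCODE small RNA transcripts, so the type label and the sequences went together. The sequences below, from the GENCODE transcripts, are of units that stood highest or lowest in astrocyte EVs or that held many counts. Capitals mark the C box and D box letters where the search found them.
SNORD115 (Gm25988): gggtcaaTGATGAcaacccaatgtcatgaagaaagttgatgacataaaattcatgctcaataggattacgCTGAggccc
SNORD116 (Gm24153): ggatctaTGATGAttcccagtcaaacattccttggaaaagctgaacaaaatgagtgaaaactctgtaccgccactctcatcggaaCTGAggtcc
SNORD113 (Gm23736): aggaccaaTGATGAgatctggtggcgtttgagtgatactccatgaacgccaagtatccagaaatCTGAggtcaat
SNORD102 (Gm25091): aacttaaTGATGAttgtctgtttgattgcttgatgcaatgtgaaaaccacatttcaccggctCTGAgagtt
SNORD24 (Gm22357): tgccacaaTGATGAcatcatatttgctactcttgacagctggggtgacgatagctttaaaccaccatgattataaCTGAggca
SNORD12 (Gm25878): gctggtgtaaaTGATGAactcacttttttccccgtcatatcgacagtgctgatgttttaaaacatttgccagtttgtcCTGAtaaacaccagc
SNORD50 (Snord50b): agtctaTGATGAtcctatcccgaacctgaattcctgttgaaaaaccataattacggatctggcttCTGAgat
SNORD72 (Snord72): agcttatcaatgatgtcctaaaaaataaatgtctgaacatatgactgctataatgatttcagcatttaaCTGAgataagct
SNORD111 (Snord111): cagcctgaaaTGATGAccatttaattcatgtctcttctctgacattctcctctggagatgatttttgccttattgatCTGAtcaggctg
SNORD99 (Snord99): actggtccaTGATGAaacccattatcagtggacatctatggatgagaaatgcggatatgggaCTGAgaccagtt

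These units lie at chr7:59428665-59428743 (SNORD115, minus strand, Snhg14 intron) and chr7:59683586-59683679 (SNORD116, minus strand, Snhg14 intron). SNORD113 (Gm23736) lies at chr12:109680800-109680874 on the plus strand, outside annotated genes, and SNORD102 at chr5:146834834-146834904 on the plus strand within Rpl21. SNORD24 lies at chr1:161036057-161036139 on the plus strand within Gas5, SNORD12 at chr2:167063473-167063565 on the plus strand within Zfas1, and SNORD50 at chr9:88521797-88521868 on the minus strand within Snhg5. SNORD72 lies at chr15:5118404-5118484 on the plus strand in an intron of Rpl37. SNORD111 lies at chr8:110838528-110838616 on the minus strand within Sf3b3, and SNORD99 at chr4:132310691-132310764 on the plus strand within Snhg12. Over all rows, 223 lay in introns, 83 overlapped an annotated exon of a host transcript and 19 were intergenic. Family names are those of the authors' table, which come from Rfam models, and the name in brackets is the GENCODE gene at that position. The 2 can differ, as for the SNORD77 row, which is Snord80 in GENCODE.

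Copies within a family often had equal or nearly equal counts. Of 22 sequences held by 2 or more rows (123 rows), 16 had equal counts in all their rows and 6 differed, the totals of the lower row being at least 0.951 of the higher. SNORD115 had 136 rows with 56 sequences in 55 units, and SNORD116 had 27 rows with 10 sequences in 11 units. Units of such a family cannot be taken as separate molecules, and counts of units below are read with a version that keeps only the most abundant unit of each family.

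C/D box units held 22896, 18297 and 43404 counts in astrocyte EV replicates 1, 2 and 3, and 31425, 9673 and 15590 counts in NSC EV replicates 1, 2 and 3. The libraries held between 44212181 and 111264540 counts outside miRNA hairpin rows, of which tRNA rows took 21.6% to 51.3%. The library sizes after TMM scaling, which set the scale for the counts given below, were 41.8, 62.6 and 141 M for astrocyte EVs and 57, 63 and 55.2 M for NSC EVs. Across the 152 units tested, log2 CPM (counts per M of the scaled library size) correlated with Pearson's r of 0.794 to 0.966 between astrocyte EV libraries, 0.864 to 0.901 between NSC EV libraries and 0.0475 to 0.483 between EV types. These correlations are across units, which are not independent replicates. Astrocyte EV replicate 3 stood nearest to the NSC EVs, with a mean r of 0.434 to them against 0.136 and 0.183 for astrocyte EV replicates 1 and 2.

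Markers of the labelled cells were mostly not told apart by the test. Of 6 astrocyte markers, Gfap, the astrocyte intermediate filament, passed the test (89, 107 and 451 counts in astrocyte EVs against 33, 51 and 31 in NSC EVs, log2 fold change 1.85, edgeR adjusted p = 0.0267), and none of 5 tested NSC markers did. The summed astrocyte markers were 9.81 to 13.9 CPM in astrocyte EVs and 8.03 to 21.2 CPM in NSC EVs, and the NSC markers 18.3 to 22.2 and 15.7 to 24.7 CPM, so both lists overlapped. Of 6 neuron markers, Rbfox3 was lower in astrocyte EVs (log2 fold change −1.5, edgeR adjusted p = 0.0413), and the summed neuron marker level was 93 to 173 CPM in astrocyte EVs and 224 to 324 CPM in NSC EVs. Without Rbfox3 the other 5 summed to 35.6 to 90.9 and 51.5 to 76.8 CPM, which overlapped. None of the oligodendrocyte or microglia markers passed, and no marker of the 5 lists was at 0 in all libraries. The part of these markers in the snoRNA results was not tested.

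The share of counts held by C/D box units as a class did not differ beyond the spread between libraries, while the shares of the imprinted loci did not overlap. The class share was 0.0267%, 0.0254% and 0.039% of non-hairpin counts in astrocyte EVs and 0.0658%, 0.0219% and 0.0308% in NSC EVs. The means were 0.0304% ± 0.00751 (SD, n = 3) and 0.0395% ± 0.0232 (SD, n = 3), a difference within the spread of the NSC EV libraries (two-sided exact permutation over libraries, p = 0.7; with 3 against 3 no p can fall below 0.1). The sign of this difference turned without tRNA and rRNA rows, relative to mature miRNA counts, with 1 unit per family, and without NSC EV replicate 1.

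The chromosome 7 locus (chr7:59342226-59980945), which holds SNORD115, SNORD116, SNORD64 and SNORD107 in 165 rows and 68 units, took 0.0524%, 0.191% and 4.04% of C/D box counts in astrocyte EVs. It took 32.6%, 27.5% and 29% in NSC EVs. The groups did not overlap, with means of 1.43% ± 2.26 and 29.7% ± 2.65 (SD, n = 3 each; exact permutation p = 0.1, the lowest reachable). The size of the share depends on how copies are counted: with every row counted the means were 4.19% and 57%, and with the most abundant unit of each family they were 0.276% and 5.65%. The astrocyte EV mean rested on replicate 3, without which it was 0.122%.

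The chromosome 12 locus (chr12:109636012-109686869), which holds 14 of the 15 SNORD113 rows, took 0.288%, 0.574% and 0.293% of C/D box counts in astrocyte EVs and 1.76%, 2.22% and 1.58% in NSC EVs. The means were 0.385% ± 0.164 and 1.85% ± 0.333 (SD, n = 3 each), again without overlap (exact permutation p = 0.1, the lowest reachable).

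**Figure D1:**
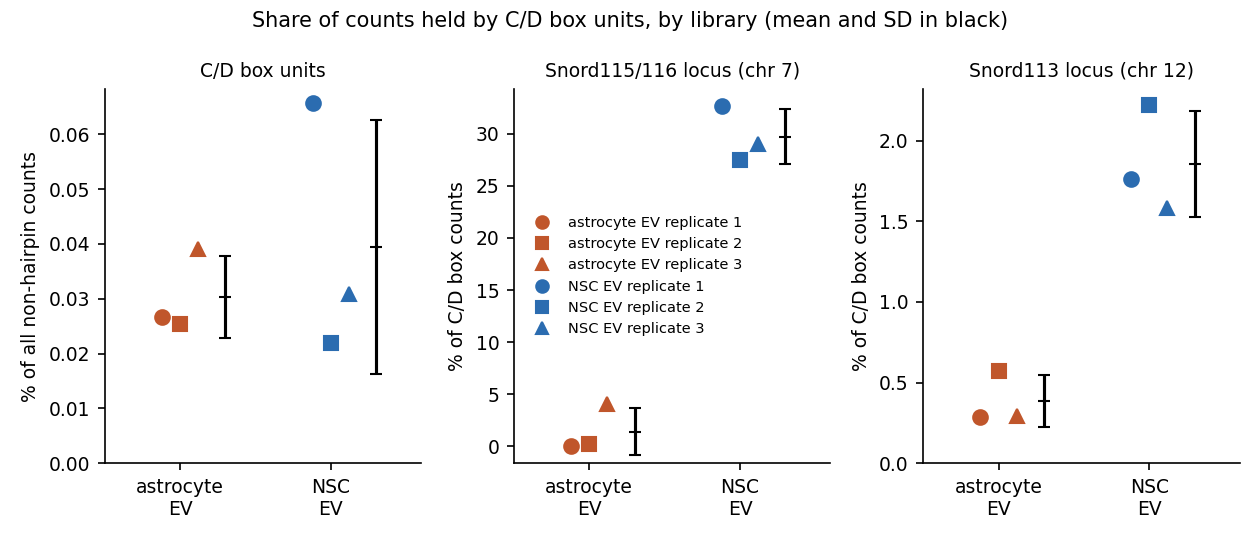
Share of counts by library, as % of non-hairpin counts for all C/D box units (left) and as % of C/D box counts for the chromosome 7 locus (middle) and the chromosome 12 locus (right). Symbols are libraries and black bars are the mean and SD of 3; the 3 astrocyte EV libraries lie below the 3 NSC EV libraries in both imprinted loci, and astrocyte EV replicate 3 lies at 4.04% in the middle panel.

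Across all C/D box units 152 of 222 passed the filter on low counts, and 23 were higher and 34 lower in astrocyte EVs (edgeR, adjusted p under 0.05). That is 37.5% of the units tested, beside 9.68% of all 41218 rows tested. By direction, 5.55% of all rows were higher and 4.13% lower. The groups did not overlap in 92 units, beside 33.7% of all rows. Of the 34 lower units, 31 lay in the chromosome 7 locus, and 33 of the tested units (30 of them SNORD115) reached the count minimum through NSC EV libraries alone. The 37.5% includes these units and copies with nearly equal counts, so it is given as a description only. Outside the imprinted loci 23.4% of the tested units were called. With only the most abundant unit of each family kept, 85 units were tested, 17 were higher and 4 lower, beside 3945 of 41151 rows called in that fit. Without TMM scaling, which moved the median of all rows from −0.04 to −0.54, the split was 17 higher and 54 lower. No unit passed in edgeR when astrocyte EV replicate 1, astrocyte EV replicate 2 or NSC EV replicate 3 was left out, where 100, 99 and 111 units had an unadjusted p under 0.05 and DESeq2 called 83, 81 and 86. Without astrocyte EV replicate 3, 36 were higher and 33 lower, beside 9.44% of all rows called.

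SNORD116 was present in all NSC EV libraries and differed by library in astrocyte EVs. Its most abundant unit (Gm24153, 14 equal rows) had 1, 7 and 258 counts in astrocyte EVs and 919, 271 and 403 in NSC EVs. The 2 lower astrocyte EV libraries were near 0 and the third approached the lowest NSC EV library in counts, though the groups did not overlap after scaling. The log2 fold change of astrocyte EVs over NSC EVs was −3.74 ± 1.21 (SE), which did not pass the test (edgeR quasi-likelihood, Benjamini-Hochberg adjusted p = 0.085). Without astrocyte EV replicate 3 it was −6.93 and passed (edgeR adjusted p = 0.0107), and with DESeq2 on all libraries the adjusted p was 0.0567. In the fit without that library the unit reached the count minimum through NSC EV libraries alone.

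The 4 most abundant of the 11 SNORD116 units had totals of 1854 to 1859 and were nearly the same measurement. The units Gm25615, Gm22131, Snord116l9, Gm26365 and Snord116l12 had no counts in astrocyte EV replicates 1 and 2. Gm25615 had 0, 0 and 60 counts in astrocyte EVs and 748, 203 and 283 in NSC EVs, and fell by 5.39 on the log2 scale (SE 1.28, edgeR adjusted p = 0.0385). Snord116l9 had 0, 0 and 65 counts against 591, 221 and 203 (log2 fold change −5.0, edgeR adjusted p = 0.0441). Of the 10 SNORD116 units tested these 2 passed, and without astrocyte EV replicate 3 all 10 did, beside 9.44% of all rows. In that fit no SNORD116 unit had more than 7 counts in an astrocyte EV library. All 10 thus reached the count minimum through NSC EV libraries alone, and several were nearly the same measurement. The 10 of 10 is therefore given as a description only. The unit Gm22373 had 1 count in all and was not tested.

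SNORD115 counts were low in astrocyte EVs. Summed over its 55 units it had 7, 0 and 103 counts in astrocyte EVs and 3088, 593 and 1337 in NSC EVs. Its most abundant unit (Gm25463, 3 equal rows) had 1, 0 and 10 counts against 214, 29 and 101. The 8 SNORD115 units of largest fitted change were at 0 in all astrocyte EV libraries. Among these, Gm25988 had 50, 12 and 28 counts in NSC EVs, which makes it at least 42.1-fold lower in astrocyte EVs (against 3 counts over the group), and for the other 7 that bound was 35 to 41.6-fold. In all, 24 of the 55 units had no count in astrocyte EVs, and 7, 0 and 26 units were detected in the 3 astrocyte EV libraries against 54, 46 and 53 in NSC EVs. All 30 SNORD115 units that could be tested reached the count minimum through NSC EV libraries alone, so the number that passed (29) is given as a description only.

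SNORD115 is known for a stretch complementary to the mRNA of the serotonin receptor Htr2c. Searched against 7 GENCODE Htr2c transcripts, 126 of 136 SNORD115 rows held a perfectly complementary run of 16 to 19 bases, and in 100 rows it was the same 18 bases, from base 53 to base 70 in 98 of them. Among the other rows the longest run was at least 11 bases.

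The other 2 snoRNAs of the chromosome 7 locus were too low to test. SNORD107 had 0 counts in each astrocyte EV library and 6, 9 and 1 in NSC EVs, at least 7.48-fold lower in astrocyte EVs. SNORD64 had 0 counts in each astrocyte EV library and 7, 4 and 0 in NSC EVs, at least 5.14-fold lower. Long rows of the locus were also given: Ipw, whose row holds 4792 C/D box counts among its 5786, had a log2 fold change of −2.69 (edgeR adjusted p = 0.0547), and Snurf, which holds none, one of −1.32 (edgeR adjusted p = 0.0543). Neither passed.

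Of 15 SNORD113 units 5 were tested and 1 passed. The most abundant, Gm23736, had 7, 29 and 16 counts in astrocyte EVs and 314, 133 and 94 in NSC EVs. All NSC EV libraries were above all astrocyte EV libraries (log2 fold change −3.66 ± 0.69 SE, edgeR adjusted p = 0.0231). DQ267102 (2, 7 and 9 against 15, 14 and 45 counts, log2 fold change −2.50, edgeR adjusted p = 0.0577) and AF357425 (7, 7 and 0 against 61, 12 and 27 counts, −2.87, adjusted p = 0.136) did not pass. These 2 units reached the count minimum through NSC EV libraries alone, so their values are given as a description only. Gm26922, within Rian, had 21, 23 and 39 counts against 53, 6 and 20, with overlapping groups and a log2 fold change of −0.29 (edgeR adjusted p = 0.824). DQ267100, also in Rian, had 20, 24 and 18 against 18, 6 and 27 counts and a log2 fold change of 0.09 (edgeR adjusted p = 0.948). The other 10 SNORD113 units were not tested and had at most 75 counts each.

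Outside the 2 imprinted loci 140 units were found, of which 107 were tested, 23 were higher in astrocyte EVs and 2 were lower. The median log2 fold change was 1.09, while that of all rows was −0.04. Both the split and the median moved with the scaling: without TMM 17 were higher and 12 lower with a median of 0.45, and on C/D box units alone 21 were higher and 9 lower with a median of 0.61. Of these 107 units, 3 reached the count minimum through astrocyte EV libraries alone and 1 through NSC EV libraries alone.

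**Figure D2:**
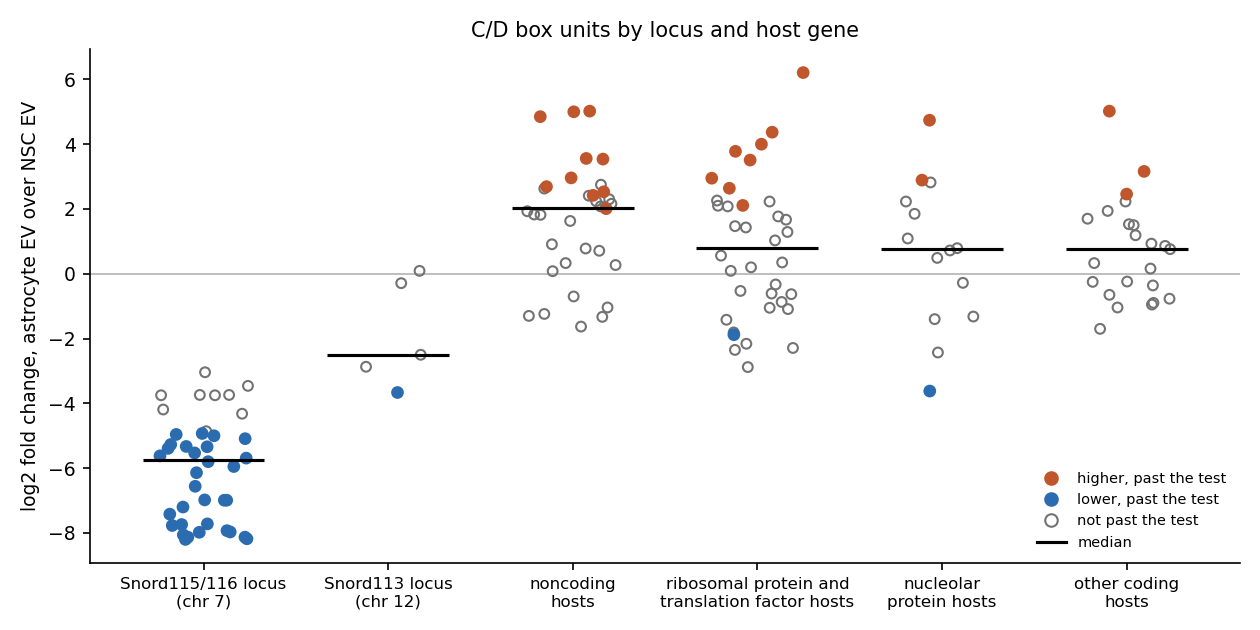
Log2 fold change of each tested C/D box unit by locus and type of host gene, astrocyte EV over NSC EV. Filled points passed the edgeR test and bars are medians, at −5.74 for the chromosome 7 locus, −2.50 for the chromosome 12 locus and 2.02 for units in noncoding hosts. In the chromosome 7 locus 11 tested units were at 0 in all astrocyte EV libraries, and with bounds for these the median was −5.26. Through NSC EV libraries alone, 30 of 40 tested units of chromosome 7 and 2 of 5 of chromosome 12 reached the count minimum.

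Units within noncoding host transcripts included many of those that were higher in astrocyte EVs. Of 34 tested, 10 were higher and none lower, with a median log2 fold change of 2.02. That is 29.4% called, beside 23.4% of all tested units outside the imprinted loci. Without TMM 7 were higher and 2 lower with a median of 1.26. With scaling on C/D box units alone 9 were higher and 1 lower with a median of 1.31. Gas5 is a growth arrest transcript whose own RNA is short-lived, and its SNORD24 (Gm22357) had 1089, 579 and 940 counts in astrocyte EVs and 21, 9 and 43 in NSC EVs. Every astrocyte EV library lay far above every NSC EV library (log2 fold change 5.02 ± 0.79 SE, edgeR adjusted p = 0.0161). From the same transcript the SNORD77 row (Snord80) had 920, 868 and 578 counts against 141, 68 and 87 (log2 fold change 2.96, edgeR adjusted p = 0.0295).

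Zfas1 is a noncoding host whose 3 snoRNAs are all of the SNORD12 family. Gm25878 had 1042, 582 and 4670 counts in astrocyte EVs and 55, 29 and 37 in NSC EVs (log2 fold change 5.0 ± 0.59 SE, edgeR adjusted p = 0.0137). Snord12 had 538, 372 and 1010 counts against 35, 12 and 5 (log2 fold change 4.85, edgeR adjusted p = 0.0152). The remaining one, Gm23201, had 50, 40 and 72 counts against 16, 5 and 7 and missed the threshold (log2 fold change 2.24, edgeR adjusted p = 0.0506). The 3 differed in size but none had overlapping groups.

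Snhg5 carries 2 SNORD50 units. Snord50b had 1025, 727 and 4722 counts in astrocyte EVs and 395, 106 and 192 in NSC EVs (log2 fold change 2.53, edgeR adjusted p = 0.0382). Snord50a had 800, 698 and 2357 against 311, 83 and 111 (log2 fold change 2.42, edgeR adjusted p = 0.0354). Each of these units also covers a row elsewhere on chromosome 9 with equal counts (Gm26135 and Gm24463), so the counts cannot be assigned to Snhg5 alone. A further SNORD50 unit, Gm23017 in 9430037G07Rik, had 64, 113 and 692 counts against 275, 76 and 101. Its groups overlapped after scaling. SNORD99, in Snhg12, had 881, 519 and 1624 counts against 79, 60 and 65 (log2 fold change 3.54 ± 0.44 SE, edgeR adjusted p = 0.0148), and SNORD49 (Snord49a, in 2410006H16Rik) had 1161, 543 and 1356 against 104, 64 and 58 (3.56, adjusted p = 0.0162).

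Of 36 tested units in genes of ribosomal proteins and translation factors, 8 were higher and 1 was lower. That is 25% called, near the 23.4% of all tested units outside the imprinted loci, beside 9.68% of all rows tested. The median log2 fold change was 0.80. Both the split and the median moved with the scaling: without TMM 6 were higher and 7 lower, with a median of 0.03. On C/D box units alone, 7 of 37 tested were higher and 5 lower, with a median of 0.13. SNORD72, in an intron of Rpl37, had 26, 55 and 27 counts in astrocyte EVs and 1, 0 and 0 in NSC EVs, a ratio of 77 with a 95% counting interval of 13.5 to 3070 that covers counting error only. Of the 36 units 2, SNORD72 among them, reached the count minimum through astrocyte EV libraries alone, and 1 did through NSC EV libraries alone. SNORD72 is therefore given as a description only. SNORD101, in Rps12, had 563, 598 and 565 counts against 41, 26 and 9 (log2 fold change 4.37 ± 0.66 SE, edgeR adjusted p = 0.0159). SNORD58 (Gm26202), in an intron of Rpl17, had 459, 276 and 986 against 26, 15 and 39 (log2 fold change 4.0, edgeR adjusted p = 0.0152). The 1 unit lower with TMM over all rows was SNORD102, in Rpl21. It had 101, 124 and 271 counts in astrocyte EVs and 743, 304 and 294 in NSC EVs. Its log2 fold change was −1.88 ± 0.44 (SE, edgeR adjusted p = 0.0382), and the groups did not overlap after scaling.

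Of 14 tested units in genes of nucleolar proteins, 2 were higher and 1 was lower, with a median log2 fold change of 0.75. That is 21.4% called, beside 23.4% of all tested units outside the imprinted loci and 9.68% of all rows tested. Without TMM 2 were higher and 2 lower, with a median of 0.15. SNORD56 (Gm23650), in the gene of the C/D box core protein Nop56, had 35, 22 and 51 counts against 1, 0 and 2, a ratio of 25.7 with a 95% counting interval of 8.56 to 126. It reached the count minimum through astrocyte EV libraries alone, so it is given as a description only. SNORD69, in the gene of the nucleolar GTPase Gnl3, went the other way, with 16, 37 and 72 counts in astrocyte EVs and 652, 170 and 233 in NSC EVs (log2 fold change −3.62 ± 0.59 SE, edgeR adjusted p = 0.017). It was singled out after its values were seen, as the second lower unit outside the imprinted loci. Of 23 tested units in other coding hosts 3 were higher, among them SNORD111 in the splicing factor gene Sf3b3, with 217, 160 and 127 counts against 12, 2 and 1 (log2 fold change 5.02, edgeR adjusted p = 0.0231). In these 23 units 13% were called, which is below the 23.4% outside the imprinted loci. The median of the 23 units was 0.76, and without TMM it was −0.06, with 2 higher and 1 lower. No test was made of differences between these host groups.

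**Figure D3:**
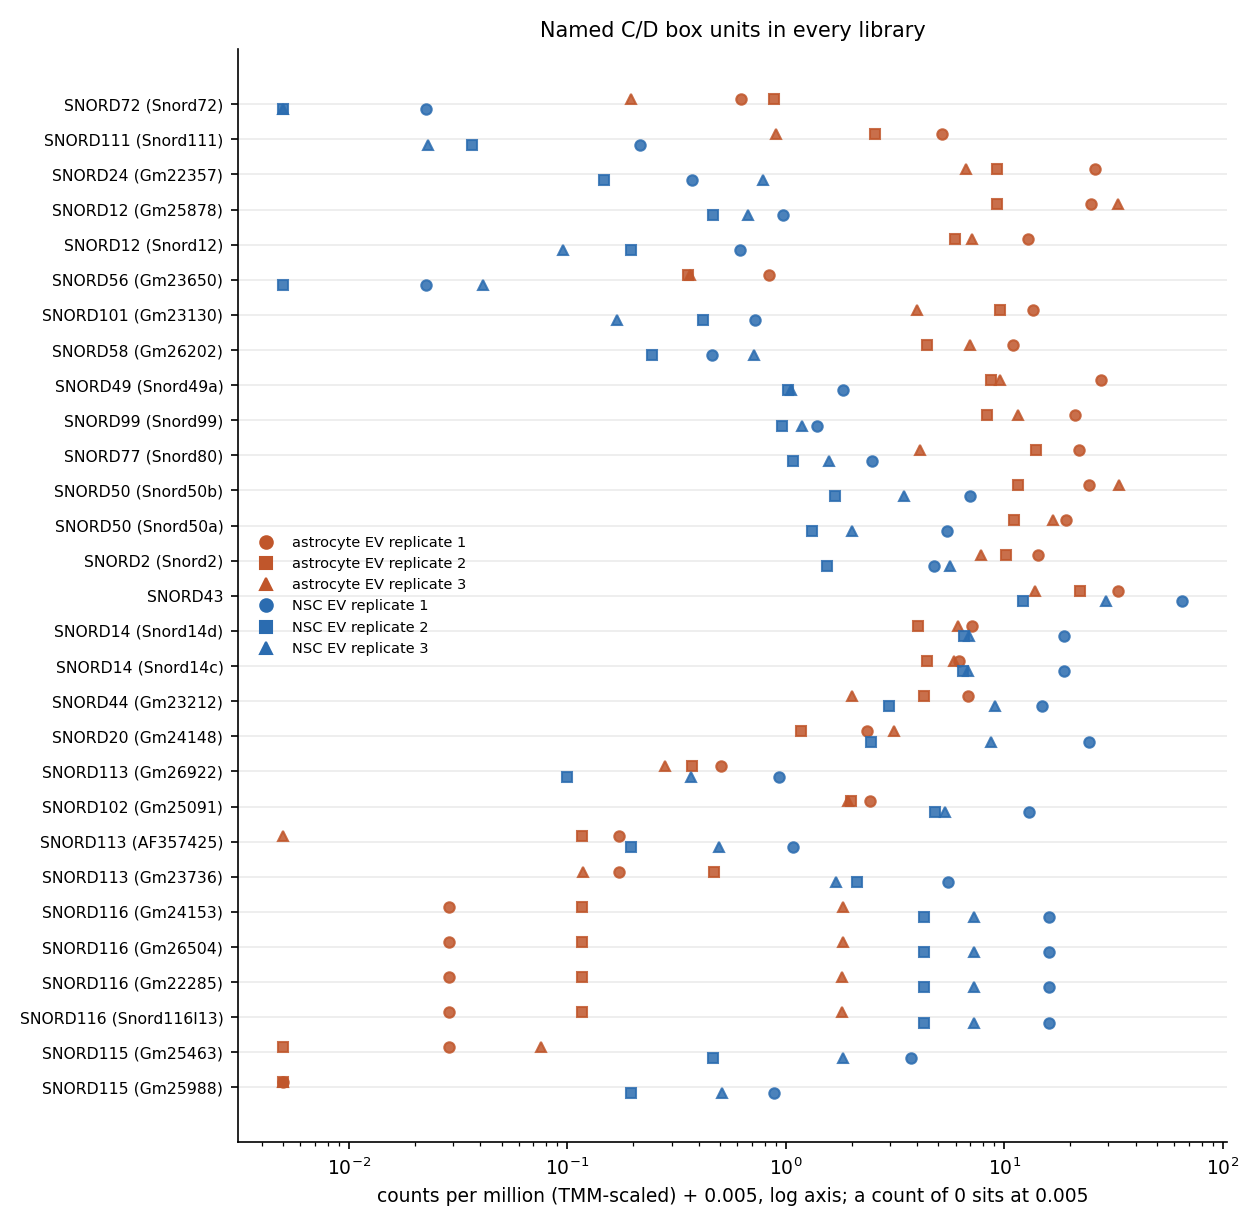
TMM-scaled CPM plus 0.005 (log axis) of named C/D box units in each of the 6 libraries, with a count of 0 drawn at 0.005. The units at the top, from SNORD72 to SNORD50, have all astrocyte EV libraries to the right of all NSC EV libraries, SNORD43 has overlapping groups, and for SNORD116 astrocyte EV replicate 3 lies nearest to the NSC EV libraries.

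Units of 1 host transcript, which are cut from a shared precursor, had different values. In Gas5, 8 of 9 units were tested, 2 were higher, and the log2 fold changes ran from −1.04 for SNORD44 to 5.02 for SNORD24. SNORD44 had 284, 268 and 284 counts in astrocyte EVs and 847, 186 and 501 in NSC EVs and did not pass (edgeR adjusted p = 0.305). The log2 ratio of SNORD24 to SNORD44 counts within a library, which does not depend on the scaling of libraries, was 1.94, 1.11 and 1.72 in astrocyte EVs and −5.30, −4.30 and −3.53 in NSC EVs. In every astrocyte EV library SNORD24 was the more abundant of the pair, and in every NSC EV library SNORD44 was.

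Pairs in 3 further hosts also changed order. In Rps12 the log2 ratio of SNORD101 to SNORD100 was 4.93, 5.47 and 6.44 in astrocyte EVs and −0.72, −0.84 and −2.72 in NSC EVs. In Rpl7a, that of SNORD36 (Gm22879) to SNORD24 (Gm23969) was 1.05, 1.24 and 1.59 against −3.41, −4.47 and −4.36. In Ncl, the gene of nucleolin, that of SNORD82 to SNORD20 was 1.70, 0.83 and 0.52 against −3.53, −2.40 and −2.69. In these 4 of the 9 hosts compared the more abundant unit of the pair was another one in each EV type. The 9 do not cover every host with 2 or more tested units. Zfas1, Rabggtb, Rpl17 and Wdr43, among others, were not compared in this way, so 4 of 9 is not a rate over hosts. In Snhg1, Rpl13a, Nop56 and Snhg5 the same unit was the more abundant in all 6 libraries, and in Gnl3 the order was mixed in astrocyte EVs (1.11, 0.04 and −0.74 for SNORD19 to SNORD69). These pairs are the highest and lowest unit of each host and were chosen for their difference, so they carry no test. In Snhg5 the only pair, Snord50b to Snord50a, had ratios of 0.36, 0.06 and 1.0 against 0.34, 0.35 and 0.79, which overlapped.

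**Figure D4:**
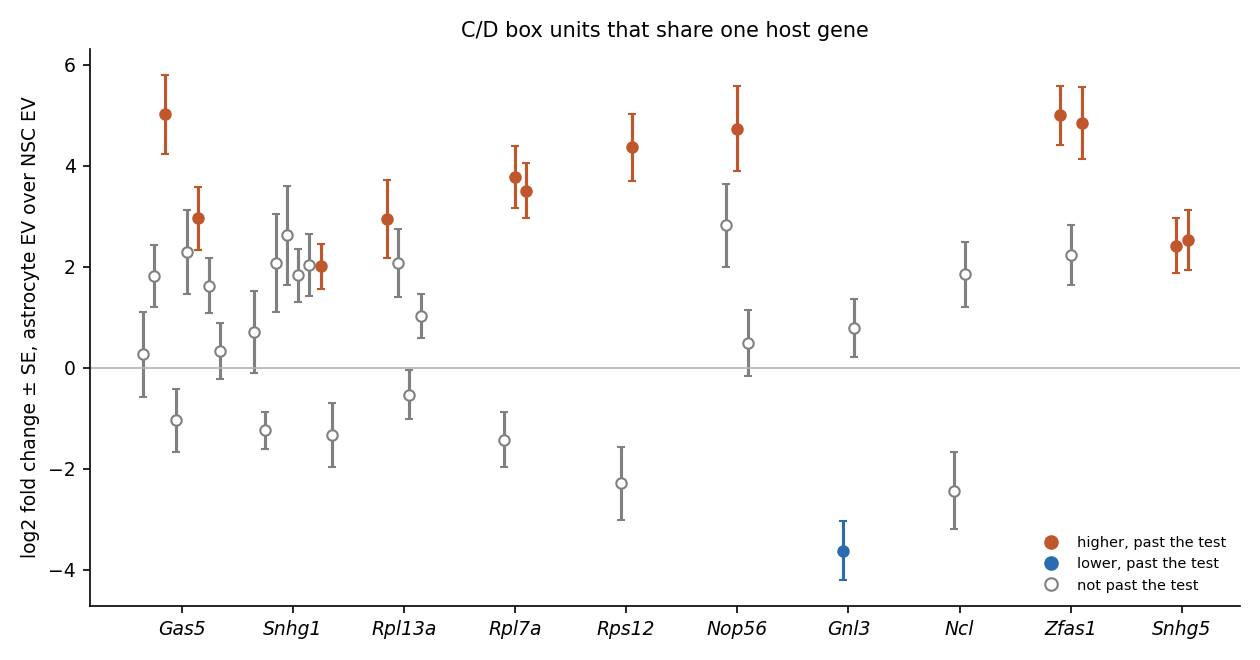
Log2 fold change ± SE, astrocyte EV over NSC EV, of tested C/D box units grouped by host gene and ordered by position within it. Filled points passed the edgeR test; units of Gas5 run from −1.04 to 5.02 and units of Rps12 from −2.29 to 4.37, while both units of Snhg5 lie near 2.5.

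The units that held most counts were largely different in the 2 EV types. The 10 units of largest mean share took 42.4% of C/D box counts in astrocyte EVs and 35.9% in NSC EVs. The NSC EV list holds several SNORD116 units that were nearly the same measurement, so the same reads can enter its sum more than once. Snord14c and Snord14d, which had similar counts, are also both in it. Neither list was repeated with 1 unit per family. As listed, 1 unit was in both. That unit was SNORD43, in Rpl3, with 1378, 1384 and 1955 counts in astrocyte EVs and 3706, 768 and 1609 in NSC EVs. Its groups overlapped (log2 fold change −0.63 ± 0.60 SE, edgeR adjusted p = 0.527), and per length it was the most abundant unit in both, at 359 and 554 CPM per kilobase. In astrocyte EVs, Snord50b (322 CPM per kilobase), SNORD12 Gm25878 (241), Snord50a (217), Snord49a (213), SNORD99 (184), Snord80 (173) and SNORD24 (169) followed. SNORD2, in Eif4a2, was also in the list (598, 637 and 1100 against 273, 97 and 313 counts, log2 fold change 1.43, edgeR adjusted p = 0.104).

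In NSC EVs the next units per length were SNORD44 (149 CPM per kilobase), SNORD20 (149), Snord14d (125) and Snord14c (124). SNORD20, in Ncl, had 98, 73 and 439 counts in astrocyte EVs and 1400, 155 and 480 in NSC EVs (log2 fold change −2.43 ± 0.77 SE, edgeR adjusted p = 0.0815). It did not pass and its groups overlapped. SNORD102 and 4 SNORD116 units, the latter at 98.1 to 98.3 CPM per kilobase, completed the NSC EV list. In astrocyte EVs the same SNORD116 units stood at 6.91 to 6.96 CPM per kilobase.

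The C/D box RNAs of ribosomal RNA cleavage that were typed as such were U14 and U22, while U3, U8 and U13 were not among the C/D box rows. The 2 main U14 units, both within the chaperone gene Hspa8, had similar counts in each library. Snord14c had 259, 278 and 829 counts in astrocyte EVs and 1065, 406 and 377 in NSC EVs (log2 fold change −0.95, edgeR adjusted p = 0.211), and Snord14d had 298, 252 and 867 against 1071, 411 and 381 (−0.90, adjusted p = 0.25). Snord14e, in Hspa8 too, had 51, 50 and 31 against 50, 35 and 29 counts, and Snord14a, in Rps13, had at most 19 counts in a library. U22, the longest unit of Snhg1, had 106, 88 and 87 counts against 388, 115 and 149 (log2 fold change −1.33, edgeR adjusted p = 0.206). None of the U14 and U22 units passed, and among them only Snord14c had groups that did not overlap.

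Of the families with 3 or more units, the most abundant units not yet given were SNORD18 Gm23344 in Rpl4 (624, 457 and 986 against 137, 26 and 180 counts, log2 fold change 2.26, edgeR adjusted p = 0.0732), SNORD95 Gm25296 in Rack1 (2.10, adjusted p = 0.0715), SNORD45 (Snord45c) in Rabggtb (314, 308 and 386 against 74, 25 and 58, log2 fold change 2.46, adjusted p = 0.0329), SNORD88 (Snord88a, 1.53, adjusted p = 0.282), SNORD62 Gm22192 (−0.25, adjusted p = 0.858) and Snord53 (−1.32, adjusted p = 0.247). Only SNORD45 passed among these 6.

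Positions of the reads within a snoRNA were given only where a shorter row lay inside it. In all, 11 piRNA rows and 4 mature miRNA rows lay within 14 C/D box rows on the same strand, 7 nearer the 5′ end and 8 nearer the 3′ end. In 14 of the 15 the short row held at least 50% of the counts of the snoRNA row. The short rows were 19 to 31 bases long. The sources used here do not state how far a read must overlap a row to be counted, so a longer read may be included in a short row. The sequences below show a 5′ and a 3′ example, with the short row in capitals.
SNORD20 (Gm24148): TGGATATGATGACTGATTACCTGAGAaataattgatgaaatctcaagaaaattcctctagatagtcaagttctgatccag
SNORD2 (Snord2): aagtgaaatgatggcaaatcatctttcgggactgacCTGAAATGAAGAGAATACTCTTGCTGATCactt

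SNORD2 lies at chr16:23108953-23109021 on the plus strand and SNORD20 at chr1:86352008-86352087 on the minus strand. In SNORD2 the piRNA row covers bases 37 to 65 of 69 and held 97.2%, 97.6% and 93% of the counts in astrocyte EVs and 96%, 96.9% and 97.1% in NSC EVs. In SNORD20 miR-3535 covers bases 1 to 26 of 80, the C box included, and held 31.6%, 50.7% and 72.2% in astrocyte EVs against 98%, 92.3% and 91.7% in NSC EVs. The share was thus steady in SNORD2 and lower in astrocyte EVs in SNORD20.

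Of 13 short rows whose snoRNA had counts in every library, 4 had shares that did not overlap between EV types, and in 3 of these the share was higher in astrocyte EVs. One of the 4 is not reported here. For comparison, the levels of 33.7% of all rows did not overlap. The 5′ piece of SNORD21 (bases up to 28 of 94) held 84.9%, 63.5% and 81.4% against 34.6%, 21.1% and 35.6%. The 3′ piece of SNORD25 (bases 42 to 68 of 72), in Snhg1, held 89%, 88.9% and 73.5% against 31.7%, 16.7% and 42.3%. For these and SNORD20 the exact permutation p was 0.1, the lowest reachable, and 0.325 after Benjamini-Hochberg adjustment over the 13. SNORD57 in Nop56, whose 5′ piece held 89.8% to 99.5% in all libraries, and SNORD81 in Gas5, whose 3′ piece held 87.3% to 97%, had overlapping groups.

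**Figure D5:**
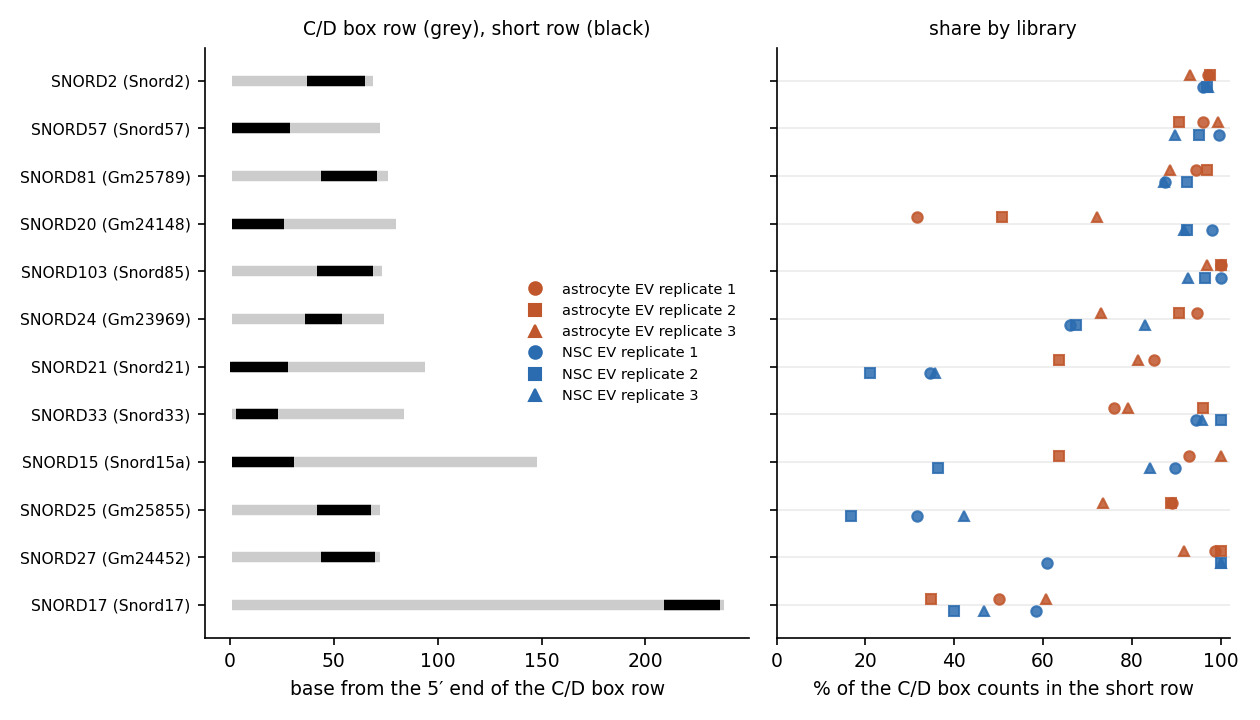
Left, position of the piRNA or miRNA row (black) along 12 C/D box rows (grey), in bases from the 5′ end; right, % of the C/D box counts held by the short row in each library. Most shares lie above 50%, and SNORD20, SNORD21 and SNORD25 have groups that do not overlap.

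H/ACA box snoRNAs, which guide pseudouridine formation in place of methylation, were fewer than C/D box snoRNAs in all libraries. The log2 ratio of H/ACA to C/D box counts was −3.93, −3.76 and −3.83 in astrocyte EVs and −3.61, −1.25 and −2.34 in NSC EVs. The means were −3.84 ± 0.085 and −2.4 ± 1.18 (SD, n = 3 each), without overlap (exact permutation p = 0.1, the lowest reachable). With the most abundant unit of each class left out, the groups overlapped and p was 0.2. In the edgeR fit 1 of 60 tested H/ACA rows was higher and 9 were lower in astrocyte EVs, with a median log2 fold change of −1.14. Of all rows tested 5.55% were higher and 4.13% lower. The fit kept every H/ACA row, while the ratio above counted equal rows once.

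Of 12 tested rows of the proteins that bind C/D box snoRNAs and of their assembly factors, 2 were higher and none lower in astrocyte EVs, with a median log2 fold change of 0.57. Of all rows 5.55% were higher and 4.13% lower. The Nop56 and Nop58 rows, which did not pass, also hold C/D box counts, 3111 of 5370 and 278 of 1698. Nhp2l1, the core protein that binds the box motifs first, had 167, 227 and 608 counts in astrocyte EVs and 74, 56 and 84 in NSC EVs (log2 fold change 1.69, edgeR adjusted p = 0.0247). Rpap3, an assembly cofactor, had 165, 193 and 595 against 57, 87 and 98 (1.44, adjusted p = 0.0389). Fbl, the methyltransferase, had 38, 32 and 87 against 29, 26 and 14 (0.78, adjusted p = 0.274). Znhit6, another assembly factor, had 4546 counts in NSC EV replicate 2 beside 94 and 124 in the other NSC EV libraries and did not pass (edgeR adjusted p = 0.0934).

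Counts of host rows lay in large part in the snoRNA rows inside them. The Gas5 row had 15392 counts, of which its 9 C/D box rows held 15316 (99.5%), and the share was 99.6% for Snhg5 and 67.9% for Rpl3. Over 56 hosts with at least 100 C/D box counts it ran from 4.2% to 99.6% with a median of 62.3%. Of 13 noncoding and imprinted host rows tested from the list, Snhg5 was higher (log2 fold change 2.47, edgeR adjusted p = 0.0357) and none was lower. Of all rows tested 5.55% were higher and 4.13% lower. The Snhg5 row holds 11527 C/D box counts among its 11574, so its call repeats that of the SNORD50 units. The Gas5 row had a log2 fold change of 1.23 (edgeR adjusted p = 0.218).

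Length and base composition were described for the 106 tested units outside the imprinted loci that had a sequence. Spearman's rho of the log2 fold change was −0.13 with length and −0.14 with GC content across units, which share libraries and are not independent. A rank correlation of 0.07 was found with the total count.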

How the data were processed

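Small RNA libraries of 3 astrocyte EV and 3 NSC EV samples were analyzed. The authors deposited raw counts per annotated row for mm10, not normalized, with a column for each library. Tools listed in the submitters' processing notes were Bowtie, Bowtie2, bedtools, cutadapt, SAMtools, FastQC and DESeq. How reads that map to several places, or overlap several rows, were counted, is not stated in these sources, and the paper and the series record name different library kits and sequencers. The tables of the authors' own comparison (group means, fold changes and adjusted p-values) were not used, and 0 columns of per-sample values were unmatched.

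Groups and replicate numbers came from the sample titles. Rows typed C/D box were reduced to units of distinct counts, and miRNA hairpin rows, which repeat mature rows, were left out. Over 61058 rows, edgeR 4.0.16 in R 4.3.3 was run (TMM over all rows, default low-count filter, quasi-likelihood test, group as the only term), with Benjamini-Hochberg adjustment over the 41218 rows tested and calls at an adjusted p under 0.05. The common dispersion was 0.2, with TMM factors between 0.488 and 1.42. SE is the one implied by the test. Shares were compared by an exact permutation test over libraries. Depth limits low units: 3 counts are 0.0212 to 0.0718 CPM in a library, and such floors and counting intervals cover counting error only. On simulated counts for this comparison (40261 rows) the share called was 38.5% for rows changed 4-fold, 96.5% at 8-fold, 100% at 16-fold and 0.0324% for rows left unchanged. The simulation gave every row the common dispersion and changed few rows, so these rates need not hold for rows with a wider spread.

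Named units were the 8 that rose and the 8 that fell most by fitted fold change, if called, without overlap and with at least 30 counts, the 10 of largest mean share in each EV type, the 3 most abundant of each imprinted locus, U14 and U22, and the most abundant unit of each family with 3 or more units. SNORD69, the other SNORD113 and SNORD116 units, the units of shared hosts and the snoRNAs with short rows are not named by it and were picked with their values in view. The members, lists and markers were chosen with earlier results of these data known.

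Alternatives were DESeq2 1.42.0, median-ratio size factors, no TMM, no tRNA and rRNA rows, C/D box units alone, no filter, a minimum of 10 counts, equal rows once over the table, a 2-fold threshold, the replicate number as a block and each library left out. DESeq2 with each library left out and 1 unit per family were added after seeing the data. Positions, hosts and sequences came from GENCODE M21, read in Python 3.11.15 (pandas 2.3.3, numpy 2.4.6, scipy 1.17.1), and figures were drawn with matplotlib 3.10.9. Results of 1 host gene and its units are not reported here.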

Additional observations from a re-analysis of the deposited data

How the results depend on the processing

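Against 57 units (23 higher, 34 lower), DESeq2 called 87 (42 higher), edgeR without a filter called 99 (40 higher, 59 lower), and a 2-fold threshold left 22 (10 higher, 12 lower). Without TMM 54 were lower. With each library left out edgeR called between 0 and 69 units (0 to 36 higher, 0 to 38 lower) and DESeq2 between 81 and 104 (26 to 50 higher, 36 to 57 lower). In DESeq2 that was 104 (50 higher, 54 lower) without astrocyte EV replicate 3, 57 lower without astrocyte EV replicate 1, 49 higher without NSC EV replicate 1, 87 (54 lower) without NSC EV replicate 2 and 86 (41 higher) without NSC EV replicate 3, and in edgeR 21 were lower without NSC EV replicate 1. With 1 unit per family 21 were called, 4 of them lower. The other alternatives kept the counts within 1.5 times, and 56 of the 57 units were also called by DESeq2 in the same direction. The cause of the loss of calls without astrocyte EV replicate 1, astrocyte EV replicate 2 or NSC EV replicate 3 was not tested.

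The difference in C/D box share (−0.00913 percentage points, astrocyte EV minus NSC EV) turned to 0.0159 without tRNA and rRNA rows, to 2.17 relative to mature miRNA counts, to 0.00135 with 1 unit per family and to 0.00403 without NSC EV replicate 1. Leaving out each library gave −0.0179 to 0.00403 for it, −29.6 to −26.8 for the chromosome 7 share, −1.6 to −1.28 for the chromosome 12 share and −2.05 to −0.864 for the log2 H/ACA ratio, and these last 3 kept their sign under all alternatives run.

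Of the named units, 4 that did not pass changed sign. Leaving out each library in edgeR gave −1.03 to 0.16 for SNORD43, −0.77 to 0.73 for SNORD113 Gm26922, −0.41 to 0.63 for Snord14e and −1.04 to 0.35 for SNORD62 Gm22192. SNORD43 was 0.16 without NSC EV replicate 1 (0.18 in DESeq2). SNORD113 Gm26922 was 0.08 with the replicate block and 0.73 without NSC EV replicate 1 (0.76 in DESeq2). Snord14e was −0.62 without TMM, −0.66 on C/D box units alone, −0.05 with the replicate block and −0.41 without astrocyte EV replicate 1 (−0.37 in DESeq2). SNORD62 Gm22192 was 0.19 without astrocyte EV replicate 3 (0.17 in DESeq2) and 0.35 without NSC EV replicate 1 (0.37 in DESeq2).

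The replicate numbers gave no sign of pairing the samples: deviations of libraries with the same number correlated at −0.0448, −0.0484 and −0.149. These values cannot exclude a pairing, because the sources used here do not state how libraries were matched. With the number as a replicate block 50 units were called (21 higher, 29 lower). Over the whole table the block left 1160 rows called, beside 3991 without it.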
